A study of Sus scrofa with 4 samples.

Results

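MAL and MAPK4 are 2 of the 21280 gene features counted in a single-cell RNA sequencing study of pig meniscus, and this account follows them through every library and into single cells. They were chosen by symbol because earlier results of the same data placed them in the white zone, so their zone levels are a description with no test. Cells were counted by unique molecular identifier (UMI), a tag that marks 1 captured RNA molecule. The study made 4 libraries from meniscus of Sus scrofa, 1 for each pairing of lateral or medial meniscus with the red zone (the outer, vascular part) or the white zone (the inner part, with few or no vessels). No treatment, genotype, strain, age or animal is named in the labels, and all 4 libraries share the same enzyme digestion, in Pronase and then Collagenase P, after the synovium had been cut away. The white zone and the red zone therefore have 2 libraries each, 1 lateral and 1 medial. Any p-value measures only the spread between these libraries, which may come from 1 animal or several.

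MAL is a small membrane proteolipid that collects in lipid rafts, and it is best known from myelinating glia, from T lymphocytes and from epithelial cells, where it takes part in transport to the apical surface. MAPK4, also called ERK4, is an atypical MAP kinase whose closest relative is MAPK6 (ERK3), and both bind the kinase MAPKAPK5. COL2A1, CILP and WIF1 encode the main collagen of cartilage, a cartilage matrix protein and a secreted inhibitor of Wnt signalling. In RefSeq's annotation of Sscrofa11.1, the build that the submitters' processing notes name, MAL lies on chromosome 3 from 46223610 to 46242306 and spans 18697 bp. MAPK4 lies on chromosome 1 from 100107429 to 100291594 and spans 184166 bp. Each symbol matched 1 feature, ENSSSCG00000008115 for MAL and ENSSSCG00000004520 for MAPK4.

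Of 27782 barcodes 27587 were kept as cells, 7382 in the lateral white, 7807 in the medial white, 5596 in the lateral red and 6802 in the medial red library. The kept cells of a library held between 9293515 and 14902274 UMIs, and the median per cell lay between 1455.5 and 1617 UMIs. Between 10 and 20 barcodes were shared by each pair of libraries, at most 0.271% of the smaller one. The doublet caller marked 105 barcodes in the lateral red library, 1 in the medial red library and 0 in both white libraries, so few doublets were removed. White zone cells carried the cartilage collagen their label implies: COL2A1 reached 5955 CPM (the UMIs of a gene as parts in 1000000 of all UMIs of the library) in lateral white and 6737 CPM in medial white, against 342 CPM in lateral red and 63.6 CPM in medial red.

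Nearly all MAL RNA came from the white zone. The lateral white library held 2049 MAL UMIs, the medial white library 1053, the lateral red library 23 and the medial red library 10, so that 98.9% of 3135 UMIs were in the white zone. As a level this was 149 CPM in lateral white (95% exact Poisson interval 143 to 156), 70.7 CPM in medial white (66.5 to 75.1), 2.47 CPM in lateral red (1.57 to 3.71) and 0.844 CPM in medial red (0.405 to 1.55). Both white libraries were far above both red ones, and within each zone the lateral library was the higher. The white to red ratio of CPM was 60.3 for the lateral pair of libraries and 83.7 for the medial pair. Intervals here and below cover counting error only, and in such library sums fewer cells of a type and less RNA per cell cannot be told apart.

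MAL was present in a minority of white zone cells, usually as 1 molecule. A MAL UMI was found in 1258 lateral white cells (17.04%) and 746 medial white cells (9.56%), against 18 lateral red cells (0.322%) and 8 medial red cells (0.118%). In lateral white, 800 of these cells had 1 UMI, 264 had 2 and 194 had 3 or more, up to 9. In medial white the numbers were 552, 126 and 68, up to 8. Depth moved with detection: in lateral white the median cell had 2136 UMIs where MAL was found and 1407 where it was not. Each cell with at least 1000 UMIs was therefore reduced at random to exactly 1000 UMIs, here called thinned. After thinning, MAL was found in 718 of 6138 lateral white cells (11.7%, 95% exact Clopper-Pearson interval 10.9 to 12.5) and 428 of 6863 medial white cells (6.24%, 5.68 to 6.83), and in 6 of 4220 lateral red and 2 of 5225 medial red cells (0.142% and 0.0383%). The zones stayed apart at equal depth, and so did the 2 white libraries.

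MAPK4 was likewise a white zone transcript, with the order of the 2 white libraries turned round. The lateral white library held 396 MAPK4 UMIs, the medial white library 744, the lateral red library 12 and the medial red library 9, and 98.2% of 1161 UMIs were in the white zone. The level was 28.9 CPM in lateral white (26.1 to 31.9), 49.9 CPM in medial white (46.4 to 53.6), 1.29 CPM in lateral red (0.667 to 2.26) and 0.760 CPM in medial red (0.347 to 1.44). The 2 red intervals overlapped, and the 2 white ones did not. The ratio of white to red CPM was 22.4 for the lateral pair and 65.7 for the medial pair.

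Most cells with MAPK4 held a single UMI of it. A UMI was found in 361 lateral white cells (4.89%), of which 331 had exactly 1, and in 657 medial white cells (8.42%), of which 583 had exactly 1. The 12 lateral red and 9 medial red cells with MAPK4 (0.214% and 0.132%) had 1 UMI each. After thinning, the shares were 2.83% (2.43 to 3.28) in lateral white, 4.53% (4.05 to 5.05) in medial white, 0.166% in lateral red and 0.0574% in medial red. Detection at equal depth thus kept the order of the summed levels, medial white above lateral white and both far above the red zone.

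**Figure D1:**
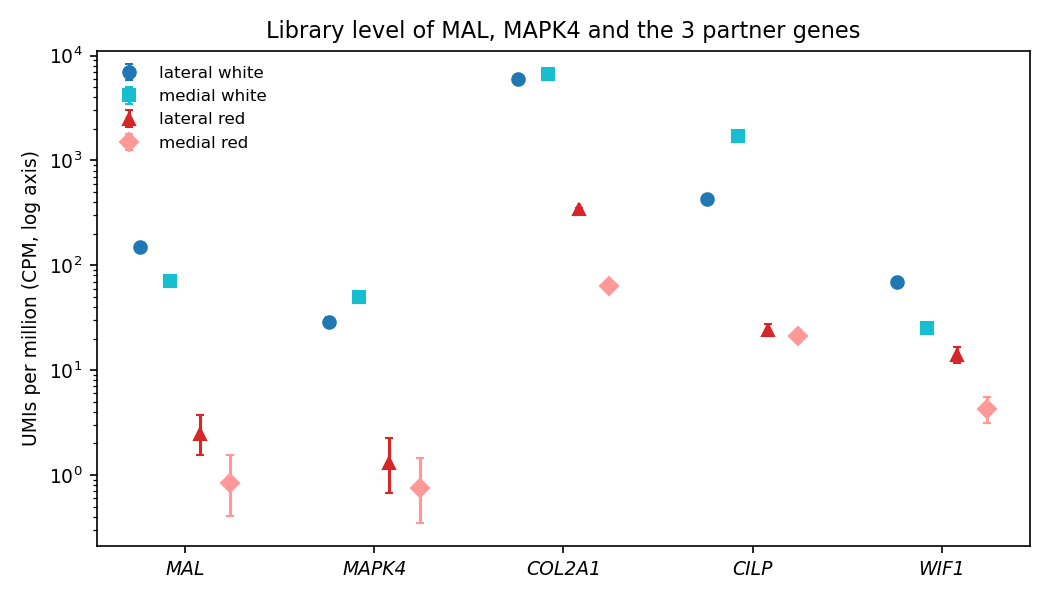
Level (CPM, log axis) of MAL, MAPK4 and the 3 partner genes in each of the 4 libraries, with exact Poisson 95% intervals, many smaller than the symbol. MAL sat at 149 and 70.7 CPM in the white libraries and below 2.48 CPM in the red ones, and MAPK4 was higher in medial than in lateral white.

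Endothelial cells, which are not known for either gene, gave the background of free RNA. Cells were clustered with MAL and MAPK4 left out of the genes used, and clusters were named from fixed marker lists. In the endothelial-like cluster MAL was found in 1 of 157 lateral white cells (0.637%) and in 0 of 240 medial white cells, which allows a share of up to 1.25%. Their median depth was 832 and 1059 UMIs, below the 1495 and 1617 of all cells in those libraries. In the same cluster MAPK4 was found in 0 of 157 and 0 of 240 white cells, which allows up to 1.91% and 1.25%. Both genes were found in 0 of 941 lateral red and 0 of 966 medial red endothelial-like cells (up to 0.319% and 0.311%). After thinning, MAL was found in 1 of 55 lateral white and 0 of 124 medial white endothelial-like cells (intervals up to 9.72% and 2.93%), and MAPK4 in 0 of both (intervals up to 6.49% and 2.93%). Other endothelial groupings gave shares that were higher in part: of white zone cells with 3 or more endothelial markers, MAL was found in 3 of 93 lateral (3.23%) and 1 of 167 medial cells, and MAPK4 in 0 of 93 and 2 of 167 (1.20%). In a small unnamed cluster led by FABP4, APOA1 and PECAM1, MAL was found in 5 of 34 lateral white cells (89.1 CPM, 42.7 to 164) and 2 of 60 medial white cells, and MAPK4 in 0 of 34 and 2 of 60. For the endothelial-like cluster at equal depth, the shares of all white zone cells lay above these intervals for MAL in both libraries and for MAPK4 in medial white. For MAPK4 in lateral white 55 cells were too few to tell, while by summed UMIs the endothelial-like level had an upper bound of 22.1 CPM, below the library's 28.9 CPM.

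Genes next to MAL and MAPK4 had no such zone pattern. Beside MAL, MRPS5 stood at 17.3 CPM in lateral white, 22.9 CPM in medial white, 16.2 CPM in lateral red and 16.3 CPM in medial red. Beside MAPK4, SKA1 had 0, 5, 8 and 7 UMIs in lateral white, medial white, lateral red and medial red, and MRO had 1, 1, 0 and 0. The high white zone levels were therefore not shared by these neighbours.

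Within the white zone, MAL was concentrated in one cluster. That cluster was led by LCN2, SPP1 and CHI3L1. It was left unnamed because no gene of the fixed chondrocyte list stood among its 10 leading genes, although that list scored highest in it. MAL stood there at 208 CPM in lateral white (198 to 218) and 191 CPM in medial white (175 to 209), and had a UMI in 26.8% and 22.0% of its cells. In chondrocyte-like cells MAL stood at 74.3 CPM in lateral white (64.8 to 84.9) and 126 CPM in medial white (113 to 140). In fibrochondrocyte-like cells it stood at 16.998 CPM (10.7 to 25.7) and 22.3 CPM (19.2 to 25.7). The order of these 3 classes was the same in both white libraries, and their intervals did not overlap. MAL itself was among the 10 leading genes of the LCN2-led cluster although it was not clustered on, so this order describes the cells and is no test of them.

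The 2 white libraries differed in how many cells of each class they held. The LCN2-led cluster made up 53.8% of lateral white and 18.6% of medial white cells, and held 87.5% and 47.3% of their MAL UMIs. Fibrochondrocyte-like cells, low in MAL, made up 11.4% of lateral white and 51.3% of medial white cells. Chondrocyte-like cells made up 26.2% and 22.5%, and held 10.5% and 34.3% of the MAL UMIs. In the whole library MAL was higher in lateral white, whereas within chondrocyte-like cells it was higher in medial white and within the LCN2-led cluster the 2 intervals overlapped. The LCN2-led cluster took 3974 of its 5494 cells from lateral white, and the classes were drawn on genes that may themselves differ between libraries, so class sizes only place the MAL UMIs. The part of cell makeup in the library difference was not tested.

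MAPK4 was found in the same 3 classes and was higher in medial white in each. It stood at 34.4 CPM in lateral white (30.6 to 38.5) and 64.1 CPM in medial white (54.7 to 74.6) in the LCN2-led cluster. In chondrocyte-like cells it stood at 28.2 CPM (22.4 to 35.0) and 85.9 CPM (75.5 to 97.3), and in fibrochondrocyte-like cells at 12.4 CPM (7.07 to 20.1) and 38.3 CPM (34.2 to 42.7). Fibrochondrocyte-like cells were the lowest of the 3 in both libraries. The order of the other two differed between the libraries: in lateral white their intervals overlapped, and in medial white chondrocyte-like cells were the higher. Of all MAPK4 UMIs, 74.7% in lateral white lay in the LCN2-led cluster, and in medial white 43.4% lay in fibrochondrocyte-like cells.

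Few red zone cells fell into these cartilage classes, and some of them carried the genes. In the LCN2-led cluster there were 40 lateral red and 31 medial red cells, with 5 and 0 MAL UMIs and no MAPK4 UMI, which allows MAPK4 in up to 7.50% and 9.68% of them. Among chondrocyte-like cells MAPK4 was found in 4 of 52 lateral red cells (43.8 CPM, 11.9 to 112) and 1 of 21 medial red cells (42.0 CPM, 1.06 to 234), intervals that include the lateral white level. MAL was found in 1 of the same 52 lateral red cells (11.0 CPM, 0.277 to 61.0) and 0 of the 21 medial red cells, and the lateral red interval lay below the lateral white one. In fibrochondrocyte-like cells of the red zone, MAPK4 was found in 0 of 367 and 0 of 158 cells, which allows up to 0.817% and 1.90%.

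**Figure D2:**
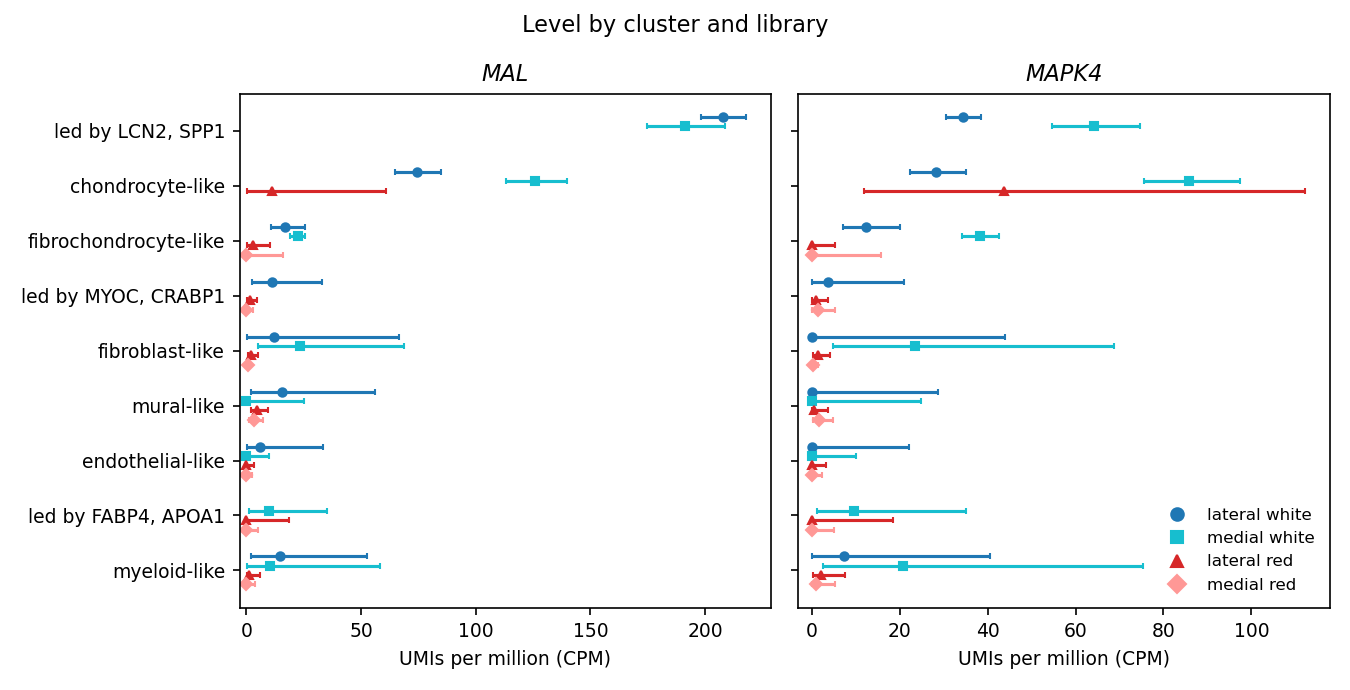
Level (CPM) of MAL and MAPK4 by cluster and library, with exact Poisson 95% intervals, for clusters with at least 50 cells in a library. MAL peaked near 200 CPM in the white cells led by LCN2 and SPP1, and MAPK4 was higher in medial than in lateral white in all 3 cartilage classes.

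Cells with COL2A1 carried MAL more often. Among thinned lateral white cells MAL was found in 568 of 3596 cells with COL2A1 (15.8%, 14.6 to 17.03) and 150 of 2542 cells without it (5.90%, 5.02 to 6.89). In medial white the shares were 346 of 3024 (11.4%, 10.3 to 12.6) and 82 of 3839 (2.14%, 1.70 to 2.64). The share was 2.68 times higher with COL2A1 in lateral and 5.36 times higher in medial white, and 79.1% and 80.8% of the cells with MAL also had COL2A1. The red zone gave little to compare: MAL was found in 1 of 91 COL2A1 cells in lateral red and 0 of 46 in medial red, which allows up to 6.52%. Over the 4 libraries the difference averaged 5.03 percentage points and was positive in 3, and a two-sided exact sign-flip permutation test gave p = 0.25 (adjusted p = 0.425 over 17 such comparisons). With 4 libraries this test cannot go below 0.13 (rounded).

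MAL was found more often where a white zone cell held some COL2A1 than where it held none, and less often where it held more COL1A1, the main collagen of fibrous tissue. In lateral white the share with MAL was 5.90% at 0 COL2A1 UMIs per 1000, 14.5% at 1 to 4, 16.6% at 5 to 19 and 17.6% at 20 or more. In medial white it was 2.14%, 9.20%, 12.6% and 13.1%. Most of the step lay between none and some COL2A1, and the intervals of the 3 upper bins overlapped in both libraries. Across the same bins of COL1A1 the share with MAL was 16.1%, 10.2%, 5.46% and 4.04% in lateral white and 12.6%, 7.35%, 2.99% and 0.689% in medial white. Taking both collagens at once, cells with COL2A1 and no COL1A1 had MAL most often, in 18.3% of lateral and 14.95% of medial white cells, and cells with COL1A1 and no COL2A1 least often, in 2.51% and 1.10%.

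CILP and WIF1 did not divide MAL cells in the same way. MAL was found in 12.5% of lateral white cells with CILP and 11.4% without it, and in 6.40% and 6.01% in medial white. The exact permutation test over libraries gave p = 0.25 (adjusted p = 0.425) for a mean difference of 0.673 percentage points, higher in 3 of 4 libraries. Of these 3, lateral red (1.23 percentage points) rested on 1 of 74 cells with CILP. For WIF1 the libraries went opposite ways: MAL was found in 33 of 350 cells with WIF1 in lateral white (9.43%, 6.58 to 13.0) against 11.8% without, and in 14 of 137 (10.2%, 5.70 to 16.6) against 6.16% in medial white. The mean difference of 0.875 percentage points gave an exact permutation p of 0.75 (adjusted p = 0.75). It included lateral red (1.88 percentage points), where 1 of 50 cells with WIF1 had MAL. Where COL2A1 was absent, MAL was found in 3.84% of cells with CILP against 6.37% of cells without it in lateral white, and in 1.55% against 2.70% in medial white, the opposite direction to that over all cells.

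MAPK4 was also found more often in white zone cells with COL2A1. It was found in 123 of 3596 lateral white cells with COL2A1 (3.42%, 2.85 to 4.07) and 51 of 2542 without (2.01%, 1.497 to 2.63). In medial white the shares were 200 of 3024 (6.61%, 5.75 to 7.56) and 111 of 3839 (2.89%, 2.38 to 3.47). The share with COL2A1 was 1.70 and 2.29 times that without. In the red zone MAPK4 was found in 1 of 91 and 1 of 46 cells with COL2A1, and in 6 of 4129 and 2 of 5179 without. The difference was positive in 4 of 4 libraries and averaged 2.06 percentage points, with the smallest p the exact sign-flip permutation test allows, 0.13 (rounded; adjusted p = 0.425).

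Along the amount of COL2A1, MAPK4 in medial white was lower in cells with none than in all 3 upper bins. Its share was 2.01%, 3.35%, 3.84% and 2.56% across the COL2A1 bins in lateral white and 2.89%, 6.28%, 7.25% and 6.22% in medial white, with overlapping intervals in the 3 upper bins of each. In lateral white the interval at 0 also overlapped those at 1 to 4 and at 20 or more. Cells with CILP had MAPK4 in 2.72% against 2.87% without in lateral white, and in 5.14% (4.47 to 5.87) against 3.70% (3.04 to 4.45) in medial white. Few cells had WIF1: MAPK4 was found in 11 of 350 (3.14%) against 2.82% in lateral white and in 4 of 137 (2.92%) against 4.56% in medial white. The exact permutation p over libraries was 0.5 for CILP, with a mean difference of 0.954 percentage points, and 0.75 for WIF1, with one of 0.626 (adjusted p = 0.567 and 0.75). Each was positive in 2 of 4 libraries. Both means leaned on lateral red, where MAPK4 was found in 2 of 74 cells with CILP (2.58 percentage points) and 2 of 50 with WIF1 (3.88). Over the 2 white libraries alone the mean difference was 0.646 for CILP and -0.659 for WIF1.

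**Figure D3:**
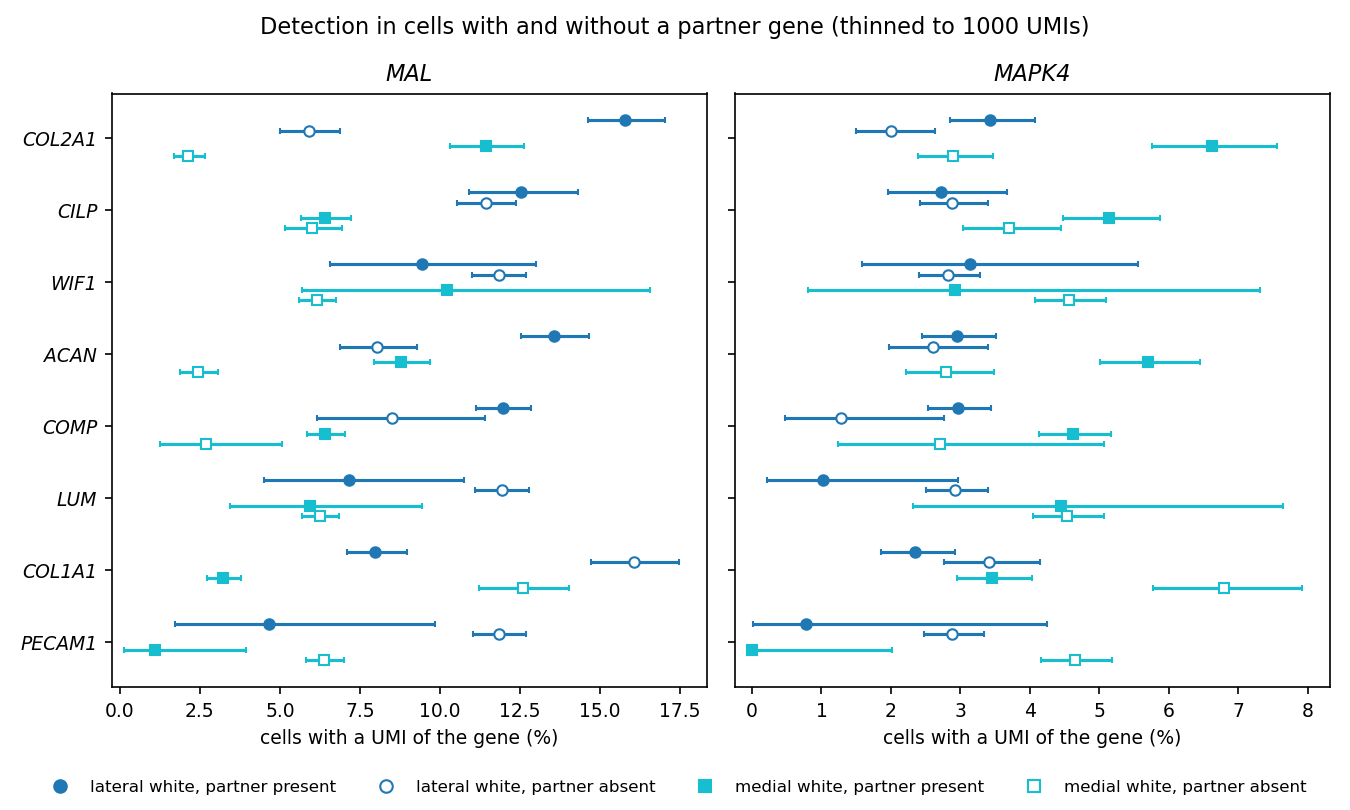
Share of thinned white zone cells with a UMI of MAL or MAPK4 among cells with a partner gene (filled) and without it (open), with exact Clopper-Pearson 95% intervals. In both libraries MAL was found more often with COL2A1 and less often with COL1A1 and PECAM1, and so was MAPK4 in medial white.

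**Figure D4:**
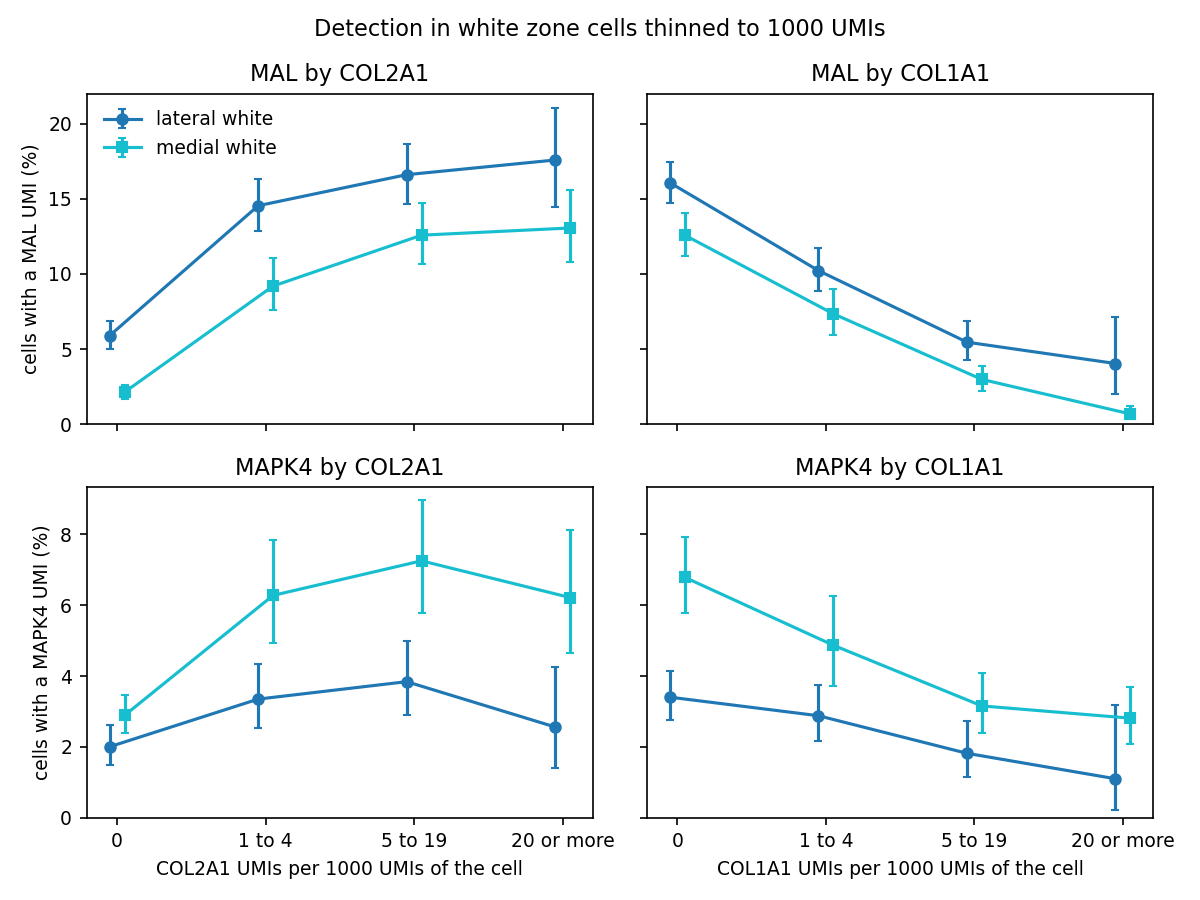
Share of thinned white zone cells with a UMI of MAL (top) or MAPK4 (bottom) against the COL2A1 (left) or COL1A1 (right) UMIs per 1000 UMIs of the cell, with exact Clopper-Pearson 95% intervals. MAL went up from 5.90% to 17.6% in lateral white along COL2A1 and down from 16.1% to 4.04% along COL1A1.

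MAL and MAPK4 shared few cells at this depth. Both were found in 27 thinned lateral white cells, where 20.4 would carry both if the genes were independent, and in 28 medial white cells, where 19.4 would. MAL was found in 15.5% of lateral white cells with MAPK4 and 11.6% without, and in 9.003% and 6.11% in medial white. In the red zone no cell of 7 and 3 with MAPK4 had MAL. The exact permutation p over the 4 libraries was 0.5 (adjusted p = 0.567), with a difference above 0 in 2 of 4.

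MAL was found more often in cells with LCN2 in both white libraries, and MAPK4 was not. LCN2 and SPP1 were added as partners after the cluster values had been seen. MAL was found in 16.95% of lateral white cells with LCN2, a secreted iron-siderophore binding protein, against 8.51% without, and in 15.1% against 4.54% in medial white. MAPK4 was found in 2.72% against 2.91% and in 3.92% against 4.65%. With SPP1 both genes were found more often in both white libraries. MAL was found in 13.9% of lateral white cells with SPP1 against 5.61% without, and in 7.72% against 4.355% in medial white. MAPK4 was found in 2.98% against 2.44% and in 4.93% against 4.03%, with overlapping intervals in each library. ACAN, the main proteoglycan of cartilage, went with MAL in 13.6% against 8.02% in lateral and 8.79% against 2.43% in medial white. With MAPK4 it was 2.95% against 2.61%, with overlapping intervals, in lateral and 5.70% against 2.79% in medial white. The endothelial gene PECAM1 went the other way: 6 of 129 lateral white cells with it had MAL (4.65%) against 11.8% without, and 2 of 181 medial white cells (1.10%) against 6.38%. MAPK4 was found in 1 of those 129 cells and in 0 of those 181, which allows up to 1.66%.

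White zone cells with a MAL UMI carried more RNA of CP, CHI3L1, MYBPH and LCN2 and less of CRABP1 and PECAM1. Genes at 50 CPM or more were ranked by the smaller of the 2 libraries' log2 ratios of CPM + 20 between cells with and without the gene, out of 1874 for MAL and 1871 for MAPK4. With MAL, the acute phase ferroxidase CP was higher by 1.10 in lateral and 1.21 in medial white. CHI3L1, a secreted chitinase-like protein, was higher by 1.01 and 1.40, LCN2 by 0.91 and 1.55, and LBP, a binding protein of bacterial lipopolysaccharide, by 0.78 and 1.23. MYBPH, APOD, PAPSS2 (an enzyme of sulphate donor synthesis) and the cartilage proteoglycan SNORC completed the 8 highest, with log2 ratios from 0.76 to 1.18. The lowest were CRABP1 (-1.75 and -2.09), the interferon-induced ISG12(A) and IFI6, PECAM1 and S100A4 (-1.44 and -2.31). COL2A1 was higher by 0.60 and 1.19 and COL1A1 lower, at -1.20 and -1.33.

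The log2 ratios of cells with MAPK4 over cells without it stayed smaller on the high side. Most cells with MAPK4 had 1 UMI of it, and these cells were not thinned. Cells in which it was missed count as without it, so the sizes of the ratios are not comparable between the 2 genes. The highest genes were ASNS, an enzyme of asparagine synthesis, at log2 ratios of 0.46 in both libraries, PEG10 at 1.04 and 0.44, the growth factor FGF2 at 0.49 and 0.40, and RNF144B at 0.62 and 0.38. COL9A1, a collagen of cartilage fibrils, was at 0.34 and 0.75, and LGR4, LPAR1 and TSPAN12 ranged from 0.33 to 0.77. None of these 8 was among the 8 named for MAL. Lists this short, out of all the genes ranked, would seldom share a gene even if unrelated. The lack of overlap therefore does not show that the 2 genes mark different cells. On the low side PECAM1, ISG12(A) and S100A4 were named for both genes, PECAM1 at -1.77 and -1.96 with MAPK4. The chemokine CXCL2 was at -1.92 and -1.77, and ANGPTL7 at -1.25 and -1.27.

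**Figure D5:**
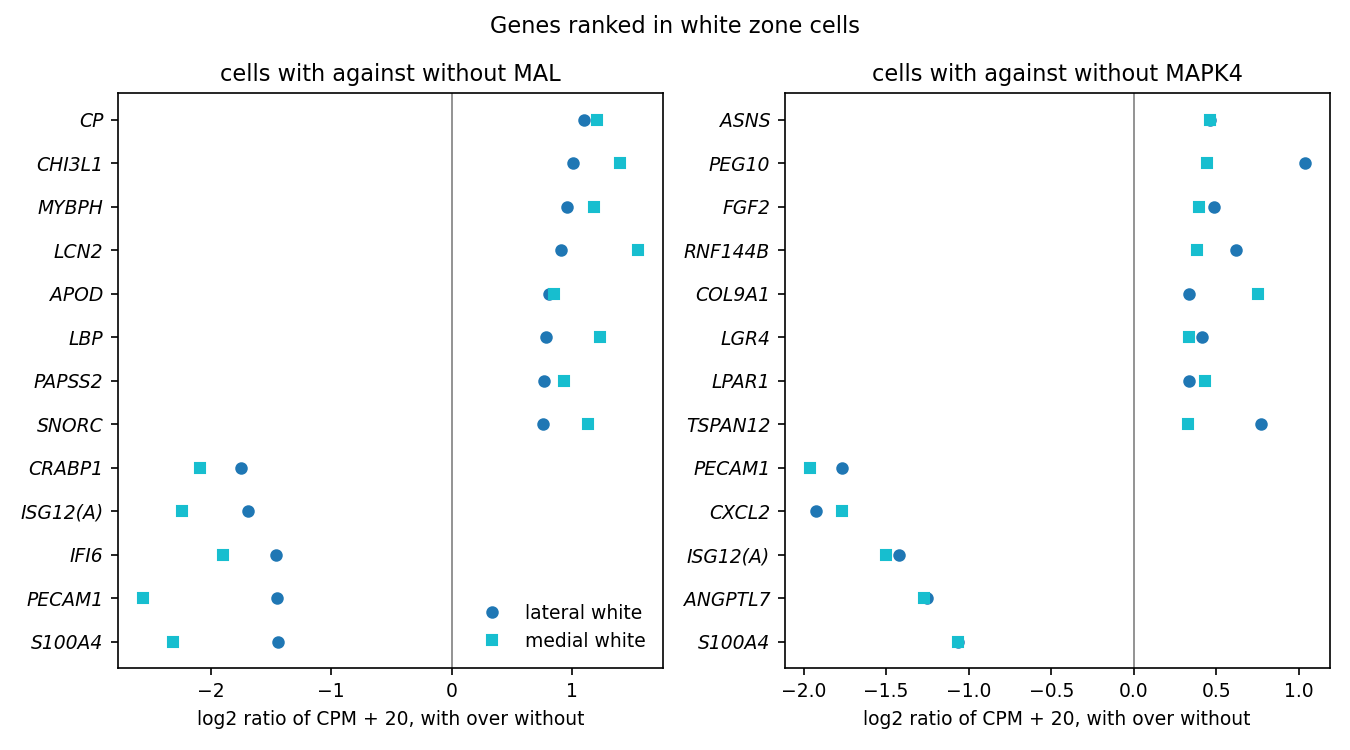
Log2 ratio of CPM + 20 between white zone cells with and without a UMI of MAL (left) or MAPK4 (right), for the 8 highest and 5 lowest genes by the fixed rule, 1 point per white library. The highest genes of MAL reached ratios of 0.76 to 1.55 and those of MAPK4 0.33 to 1.04, and PECAM1 was low for both.

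Across 33 sums of a cluster in a library, each of at least 50 cells, the genes with the most similar levels were taken by Pearson's r of log2(CPM + 20). For MAL these were MKNK2, a kinase downstream of MAP kinases (r = 0.850), CHI3L1 (0.846), SNORC (0.845), CP (0.817) and SUSD5 (0.815), of 5010 genes compared. For MAPK4 they were the cartilage collagen COL11A2 (0.917), SNORC (0.889), COL9A1 (0.882), the tRNA synthetase GARS1 (0.870) and ASNS (0.866), of 5011. COL2A1 ranked 20 for MAL (0.749) and 6 for MAPK4 (0.855), CILP 39 (0.686) and 13 (0.819), and WIF1 210 (0.496) and 114 (0.620). MAL and MAPK4 had r = 0.842 with each other. These values describe sums that share libraries, depth and clusters, so they carry no p-value. The sums came from both zones, and MAL and MAPK4 were chosen as white zone genes. Their r with each other and with other white zone genes was therefore partly set by that choice.

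The few red zone cells with MAL were of mixed kind. Of 26 such cells, with 33 UMIs, 16 had neither COL2A1 nor 3 or more of 7 Schwann cell markers, 6 had a COL2A1 UMI, all in lateral red, and 4 had those Schwann markers. By cluster, 11 of the 26 lay among mural-like cells. Only 8 red zone cells had that many Schwann markers, and MAL was found in 4 of them (an interval of 15.7 to 84.3%), 2 of 5 in lateral red and 2 of 3 in medial red. T or NK cell markers went with no MAL: 0 of 129 red zone cells with 3 or more such markers had it, which allows up to 2.33%. MAPK4 was found in 0 of the 8 cells with Schwann markers and in 1 of the 129, and 4 of its 21 red zone cells had COL2A1.

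Among cells rich in COL2A1, MAL was again lower in the red zone. This split, at 5 or more COL2A1 UMIs before thinning, was chosen after the values had been seen. MAL stood at 200 CPM in 2661 lateral white cells (189 to 211), 133 CPM in 2388 medial white cells (123 to 144), 38.5 CPM in 57 lateral red cells (12.5 to 89.9) and 0 in 23 medial red cells, where 77.9 CPM is the upper end of the exact interval. Median depth was 1964, 1737, 2074 and 1292 UMIs in the same order. MAPK4 stood at 35.5, 73.9, 15.4 (1.87 to 55.7) and 21.1 CPM (0.534 to 118), so its red zone intervals included the lateral white level. With 57 and 23 cells the red zone depth does not separate MAPK4 levels. A further 1663, 1281, 69 and 49 cells had 1 to 4 COL2A1 UMIs.

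Between the medial and the lateral meniscus, MAL was lower in the medial library in 2 of 2 zones. The log2 difference of CPM was -1.08 in the white and -1.55 in the red zone. The test was edgeR's quasi-likelihood fit on UMIs summed per library, with the zone as second term and 1 residual degree of freedom. It gave a log2 change of -1.28 ± 0.21 (SE, n = 2 libraries a side) with a Benjamini-Hochberg adjusted p of 0.156, rank 25 of 12461 genes by p. MAL thus missed the threshold of 0.05, which 7 genes or 0.0562% passed, 0.00803% higher and 0.0482% lower in the medial libraries. It passed with DESeq2 (-1.29, adjusted p = 0.0399), without the filter on low counts (-1.27, edgeR adjusted p = 7.74e-05) and without the cells of highest doublet score (-1.23, edgeR adjusted p = 0.0401). For MAPK4 the edgeR change was 0.41 ± 0.30 with a Benjamini-Hochberg adjusted p of 0.851. It was 0.79 in the white and -0.76 in the red zone, where 12 and 9 UMIs stand behind it.

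Genes related to MAL and MAPK4 were also compared between the zones. Between white and red zone, edgeR called 39.8% of 12461 genes at a Benjamini-Hochberg adjusted p below 0.05, 17.7% higher and 22% lower in white, with a median log2 change of 0.00 over all genes. Of 53 genes tested in 6 lists of related genes, 20 were called, 6 higher and 14 lower, a share near the background, with a median of -0.30. Without TMM scaling factors (0.808 to 1.20) the median of all genes moved to -0.49, with 903 of all genes called higher and 5146 lower, and 2 listed genes called higher and 31 lower. DESeq2 called 13 of 64 listed genes and 3127 of 17198 in all. Without the lateral red library 12 of 55 listed genes and 2848 of all 12890 were called, and without the medial red library 10 of 55 and 2450 of 12848.

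Of the MAL and MARVEL domain family, 7 of 12 genes in the files were tested, 2 rose and 3 fell, with a median log2 change of -0.73. CMTM4, a MARVEL protein, stood at 26.6, 21.6, 10.3 and 7.60 CPM in lateral white, medial white, lateral red and medial red, and rose by 1.93 ± 0.20 (SE; edgeR with Benjamini-Hochberg, adjusted p = 0.000241). CMTM8 fell by 1.74 and CMTM3 by 1.48, and PLP2, a proteolipid, rose by 0.92, a call lost without TMM factors and without either red library. Of 13 genes of lipid rafts and apical transport tested, 0 rose and 3 fell, with a median of -0.32: the T cell kinase LCK fell by 4.84, the apical syntaxin STX3 by 2.22 and TPD52 by 1.25. Myelin genes divided: PMP22, which fibroblasts also express, rose by 1.26, and MBP fell by 2.84. Of the epithelial genes 2 were tested, and EPCAM fell by 3.06, a call lost with DESeq2 and without the lateral red library. The call of TPD52 was lost without the medial red library.

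Of the MAP kinases, 12 of 13 were tested, 2 rose and 3 fell, with a median log2 change of -0.29. MAPK12, MAPK11 and MAPK14, all p38 kinases, fell by 1.26, 2.45 and 0.81. MAPK9, a JNK kinase, rose by 0.77, a call lost without TMM factors, with DESeq2 and without either red library. DESeq2 called 1 of 13 MAP kinases, with MAPK11 and MAPK14 among the calls lost, and edgeR called 2 without the lateral and 0 without the medial red library (5 and 3 at an unadjusted p below 0.05). MAPK6, the closest relative of MAPK4, stood at 70.9, 79.0, 132 and 164 CPM in lateral white, medial white, lateral red and medial red, and its log2 change of -0.49 ± 0.17 missed the threshold (edgeR with Benjamini-Hochberg, adjusted p = 0.0560). Among partners of ERK4 and genes of the AKT pathway, 14 of 15 were tested and 2 fell, with a median of -0.10: FOXO1 fell by 0.86, a call lost without the medial red library, and RICTOR by 0.55, a call lost with DESeq2, with no replicate block and without the medial white or either red library. MAPKAPK5, the kinase bound by MAPK4, had a log2 change of 0.22 ± 0.23 (edgeR with Benjamini-Hochberg, adjusted p = 0.472). Between medial and lateral meniscus edgeR called 0 of the 53 listed genes, with 4 at an unadjusted p below 0.05, and DESeq2 called 0 of 64.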

How the data were processed

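The authors deposited 1 matrix of raw UMI counts for each library, made with Cell Ranger 6.1.2 on Sscrofa11.1, per the submitters' processing notes, from 10x 3' v3.1 libraries. Of 21280 features 14811 carried a symbol, 694 took one from the gene name table and 5775 had none. Kept barcodes had at least 500 UMIs, 200 genes and at most 20% mitochondrial UMIs and were not called by Scrublet.

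Cells with at least 1000 UMIs were thinned to 1000 by seeded draws. Clustering used scanpy 1.11.5 with 2000 variable genes, MAL and MAPK4 left out, 30 components, 15 neighbours and Leiden resolution 0.5. A cluster was named from a marker list with a score of at least 1, at least 3 detected markers and, among its 10 leading genes, more of its own markers than of any other list, a tie rule set after the clusters were seen.

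UMIs summed per library were tested with edgeR 4.0.16 (glmQLFit, TMM, filterByExpr; zone and meniscus as terms) in R 4.3.3, with DESeq2 1.42.0 as alternative. On simulated counts the zone test recovered 44 of 97 genes changed 2-fold and 95 of 99 changed 4-fold, with 7 false calls among 12209 genes. The meniscus test recovered 52 of 98 and 94 of 95, with 5 among 12214. In the simulation all other genes had equal means, while the real zone contrast called 39.8% of genes. These false calls therefore give no error rate for the real zone test. Shares have 95% Clopper-Pearson and levels 95% Poisson intervals; a count of 0 allows up to 3 counts. A 2 against 2 permutation cannot go below p = 0.33. The members, lists and rules were chosen with earlier results of these data known. Named genes follow the ranking rules given with them; up to 4 genes a list were named by lowest p, besides MAPK6 and MAPKAPK5. Sequences are not used here, and some genes that these rules would name are not reported here.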

Additional observations from a re-analysis of the deposited data

Results flagged for a closer look

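The first result went opposite ways in the 2 zones and the others in the 2 white libraries, and none of these differences was tested. MAPK4 was higher in the medial than in the lateral library of the white zone, by 0.79 on the log2 scale of CPM, and lower in the red zone, at -0.76, where it rests on 12 and 9 UMIs.

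The share of thinned cells with MAL, in cells with WIF1 minus cells without, was -2.41 percentage points in lateral white and 4.06 in medial white, with 350 and 137 WIF1 cells. For MAPK4 the same difference was 0.327 in lateral and -1.64 in medial white. MAPK4 in cells with CILP minus cells without was -0.154 percentage points in lateral and 1.45 in medial white.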

How the results depend on the processing

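Over the alternatives to the compared values, 127 kept their direction and their side of the threshold or stayed within the spread. A further 28 moved further, 6 turned direction and 3 newly passed the threshold. Co-detection differences were checked for direction only. For partners other than COL2A1, CILP and WIF1, 109 of 109 kept it. A mean of 2 libraries with 1 left out always stays within their SD. For shares and class levels those alternatives therefore counted as kept whatever the data. The medial change of MAL had adjusted p-values from 7.74e-05 to 1.00 over its alternatives, passing with DESeq2 (-1.29), with no filter on low counts (-1.27) and with the highest doublet scores removed (-1.23), and it ranged from -1.55 to -1.08 with 1 library left out. That of MAPK4 ranged from -0.76 to 0.79 with 1 library left out: without either white library only the red pair is left. With no replicate block (the paired zone term dropped), it was -1.21 for MAL and 0.64 for MAPK4 and edgeR called 0 genes, 27 having an unadjusted p below 0.05. The meniscus count of 7 genes was 32 with DESeq2, 24 without TMM factors, 264 without the filter and 35 with the highest doublet scores removed. The zone count was 3127 with DESeq2 and 2450 to 5096 with 1 library left out, and the listed count of 20 was 13 with DESeq2, 33 without TMM factors and 10 to 27 with 1 library left out, lowest without a red library.

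Shares of cells depend on depth. The white mean of MAL was 8.97% ± 3.86 (SD, n = 2 libraries) at 1000 UMIs, 4.39% at 500, 16.6% at 2000 and 13.3% unthinned, and 6.24% to 11.7% with 1 library left out. The red mean was 0.0902%, 0.267% at 2000, 0.220% unthinned, and 0.0383% to 0.142%. For MAPK4 the white mean was 3.68% ± 1.20 (SD, n = 2 libraries), then 1.72%, 7.22% and 6.65%, and 2.83% to 4.53%; the red mean was 0.112%, 0.249% at 2000, and 0.0574% to 0.166%. The mean WIF1 difference of MAL, 0.875 percentage points, was -0.640 at 2000 UMIs and -0.188 to 1.97 with 1 library left out, and that of MAPK4, 0.626, was -0.145 with WIF1 from 2 UMIs and -0.459 to 1.38. The COL2A1 differences ranged from 3.42 to 6.73 for MAL and from 1.501 to 2.42 for MAPK4 with 1 library left out.

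Cluster borders moved MAL levels. Its white mean of 200 CPM in clusters led by LCN2 and SPP1 was 216 with MAL and MAPK4 among the clustered genes and 224 with the highest doublet scores removed. The 100.2 CPM in chondrocyte-like cells was 142 and 158, and 176 at resolution 1.0. At that resolution a cluster of 2353 cells, 1944 of them lateral white, was named chondrocyte-like with LCN2 and SPP1 among its 10 leading genes. The 176 CPM thus includes LCN2-led cells, and the 2 classes were not separate there. The 19.6 CPM in fibrochondrocyte-like cells was 25.3 with doublet scores removed and 30.4 at resolution 1.0. The cause of the other shifts was not tested. In the red zone 33 MAL and 21 MAPK4 UMIs limit every statement to large differences.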
